A study of Mus musculus with 8 samples.

Results

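A splice junction is the place in a mature RNA where 2 exons meet, and a sequenced read that crosses it aligns to the genome in pieces with the intron left out. The junctions described here lie on distal mouse chromosome 4, in ovaries of wild-type (WT) mice and of mice labelled GOAT KO. A junction was a member if its intron started in a fixed stretch of distal chromosome 4 and its reads summed to 20 or more over the 8 libraries. The first member starts at base 115000348 and the last at 149994587 (GRCm38, mm10), and the stretch ends at 150000000. Of 183869 introns in the 8 deposited junction files, 100866 reached 20 reads, and 2904 of these lie in the stretch. The rest of chromosome 4 holds 3501 junctions at the same threshold. The members were thus selected on their summed reads and on their position, and the stretch itself was proposed with differences of gene counts in these same libraries known. Position and depth are therefore no findings, and a difference of junction reads in the stretch is not independent of the gene counts. Just inside the threshold are 27 members with exactly 20 reads, and just outside it are 28 junctions with 19.

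Whole ovaries of 4 WT and 4 GOAT KO mice of strain C57/Bl6 were collected at 3 weeks of age, 1 library per mouse, and sequenced as single reads of 50 bases. GOAT, ghrelin-O-acyltransferase, is the product of Mboat4 and attaches the fatty acid to ghrelin, a peptide hormone of the stomach. The knockout is global, and both genotypes came from matings of heterozygous mice. The animal numbers are 1118, 1119, 1120 and 1121 for WT and 1139, 1140, 1141 and 1146 for GOAT KO, and WT animals are the controls, with no further allele or treatment given in the labels. In bulk tissue, fewer cells of a type and less RNA per cell cannot be told apart.

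Mboat4 was near the floor in every library, with 1, 1, 1 and 3 counts in WT and 5, 7, 7 and 8 in those labelled GOAT KO. The counts were thus higher under the GOAT KO label (p = 0.0286 by exact permutation of CPM, two-sided, the least that 4 against 4 allows). No junction of Mboat4 was listed in any file, so no read shows which of its exons were present. Counts this low do not test the genotype, and directions below are those of the libraries labelled GOAT KO. Summed levels of ovarian markers overlapped between the groups, with oocyte markers (6 of 6 in the table) at 947 to 1165 CPM (counts scaled to a common library size) in WT and 973 to 1132 CPM in GOAT KO, and granulosa markers (5 of 5) at 3535 to 4558 and 3798 to 4375 CPM. Adipose markers (3 of 3) summed to 8.04 to 17.7 CPM in WT and 15.6 to 290 CPM in GOAT KO, and their part in any difference below was not tested. The libraries hold 2586686 to 3239382 junction reads each, of which 75181 to 92709 lie on members.

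Splicing removes introns at a donor site at the 5′ end and an acceptor site at the 3′ end. Reads across one junction follow both the amount of the transcript and the choice among alternative exons, so a change at every junction of a gene and a change at 1 junction are different observations. In a short-read library a junction collects only the reads that happen to span it, so its counts are far below those of its gene.

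The sequences below are the exon ends joined at the junctions on which the results turn, 15 bases of each exon as read on the gene's strand, from the GENCODE transcripts of GRCm38. Lower case is the upstream exon and capitals are the downstream exon, so the splice lies between them. The 5 junctions of Grik3 that were called come first, followed by the 3 further junctions that every library of one group lists and no library of the other. Last comes the junction of Col9a2 with the smallest p.
Grik3 chr4:125650592-125656287, plus strand: aacttcatcaaggagGCTCAATGGGAAGGA
Grik3 chr4:125656396-125659688, plus strand: gatggcctcgagaagGTTGGAGTATGGAGT
Grik3 chr4:125659803-125670552, plus strand: gtcaccactgtgctgGAGGAGCCTTTTGTC
Grik3 chr4:125691214-125693961, plus strand: ccctgatgcagcaagGATCTGAACTGATGC
Grik3 chr4:125705206-125707896, plus strand: gcggagcgggagcagCGCTCCTTCTGCAGC
Epb41 chr4:132000305-132003584, minus strand: gaatgtgttgtagagAAACATGCTAAGGGA
Hspg2 chr4:137519778-137531623, plus strand: ggcccttcctgccagGACTGTGCCCCGGGC
Asap3 chr4:136236785-136238175, plus strand: tcgacctggtgacccACAACCGCACTTACC
Col9a2 chr4:121052430-121052580, plus strand: atcaaaggagataagGGTTCCCCAGGGAAG
The coordinates are those of the intron. All 9 junctions join coding exon sequence.

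The 2904 members fall in 331 genes, and 5 lie in no gene. Their reads ranged from 20 to 4343 with a median of 122, against 108 on the rest of chromosome 4. The members' introns were shorter, with a median of 967 bases against 1457 on the rest of the chromosome and 1254 over all junctions, and they ranged from 71 to 57555 bases. Of the members, 2858 (98.4%) are introns of the GENCODE annotation. The stretch took 49.7% ± 0.587 (SD, n = 4) of the reads on chromosome 4 junctions in WT and 49.4% ± 0.456 (SD, n = 4) in GOAT KO, and the groups overlapped, from 49.21% to 50.34% in WT and from 48.81% to 49.9% in GOAT KO.

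The most-read junctions belonged to genes that cells of every type use. Akr1a1, an aldo-keto reductase, had 650, 585, 561 and 553 reads in the WT libraries 1118 to 1121 and 468, 534, 493 and 499 in GOAT KO 1139, 1140, 1141 and 1146 across chr4:116640006-116640990. Sfpq, a splicing factor, followed with 3526 reads in all, then Uqcrh, a subunit of respiratory complex III, with 3361. Rsrp1, a protein rich in arginine and serine, and Ddost, a subunit of the enzyme that attaches glycans to proteins, had 2717 each. None of the 5 was called, with log2 fold changes (GOAT KO over WT) from -0.41 to -0.08. In 4 of them WT 1118 had the highest read count of the 8 libraries, as for Ddost with 521 reads against 275 to 351 in the others.

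WT 1118 stood apart from the other libraries at the junctions. Of the 405 members with 400 or more reads, 150 (37.0%) had their highest CPM in WT 1118, and between 14 and 65 in each other library. The share was as large on the rest of the chromosome (37.8%) and over all junctions (37.0%). WT 1118 also listed fewest members, 2452, against 2609 to 2710 in the other libraries. The chi-square per junction was 3.86 to 5.17 for the WT pairs with 1118 and 1.32 to 1.99 for every other pair within a group, so that no pair differed by less than sampling noise. Calls that were lost without this library are named below for the junctions whose reads are given.

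The files lacked lines for some members that had many reads in other libraries. Only 1833 members (63.1%) were listed in all 8 files, and among the 768 members with at least 160 and under 400 reads 92 (12%) were absent from 1 or more. A member was counted as having a gap when it was absent from 1 library while the other 3 of its group averaged 10 or more reads. This held for 461 members (15.9%), against 15.2% on the rest of the chromosome and 15.4% over all junctions. A junction of Cdc42, a small GTPase that organises the actin skeleton, is an example. At chr4:137329125 it had 231, 214 and 212 reads in WT 1119, 1120 and 1121 and no line in WT 1118 or in any GOAT KO library, while the Cdc42 gene counts were 4628 to 6214 in WT and 4798 to 6015 in GOAT KO. An absent line entered the tests as 0 reads and is called absent, not 0, in what follows, and no fold is given against a group in which it is absent throughout.

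**Figure D1:**
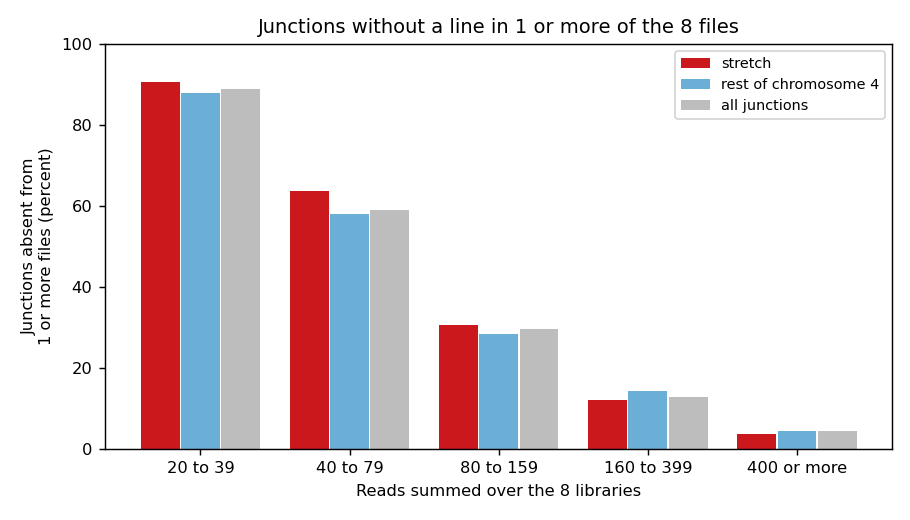
Percent of junctions without a line in 1 or more of the 8 files (vertical axis) by the reads summed over the libraries (horizontal axis), for the stretch (red), the rest of chromosome 4 (blue) and all junctions (grey). Even with 400 or more reads 3.7% of the members were absent from a file, and the 3 sets of junctions had similar shares in every class.

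The first comparison asked which junctions of the stretch differed in reads between WT and GOAT KO. A junction was called when edgeR's quasi-likelihood test, fitted over all 100866 junctions, gave p under 0.05 before adjustment and the log2 fold change exceeded 0.5 in either direction, the thresholds of the study. Of the members, 129 (4.44%) were called, 67 with more reads and 62 with fewer in the libraries labelled GOAT KO, where 2.96% of all junctions tested were called (1.56% higher and 1.40% lower). On the rest of chromosome 4, 113 junctions (3.23%) were called. After Benjamini-Hochberg adjustment over all junctions, edgeR's quasi-likelihood test left 0 members under 0.05, with the smallest adjusted p at 0.373, where 0.00397% of all junctions passed. At an unadjusted p under 0.05 there were 151 members (5.20%, where 3.79% of all junctions passed), and DESeq2 left 5 members (0.172%) under an adjusted p of 0.05, where 0.0972% of all junctions passed. The median log2 fold change was 0.027 over the members, 0.025 over the rest of the chromosome and 0.020 over all junctions. Groups did not overlap in CPM for 138 members (4.75%), where 3.93% of all junctions did not overlap.

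**Figure D2:**
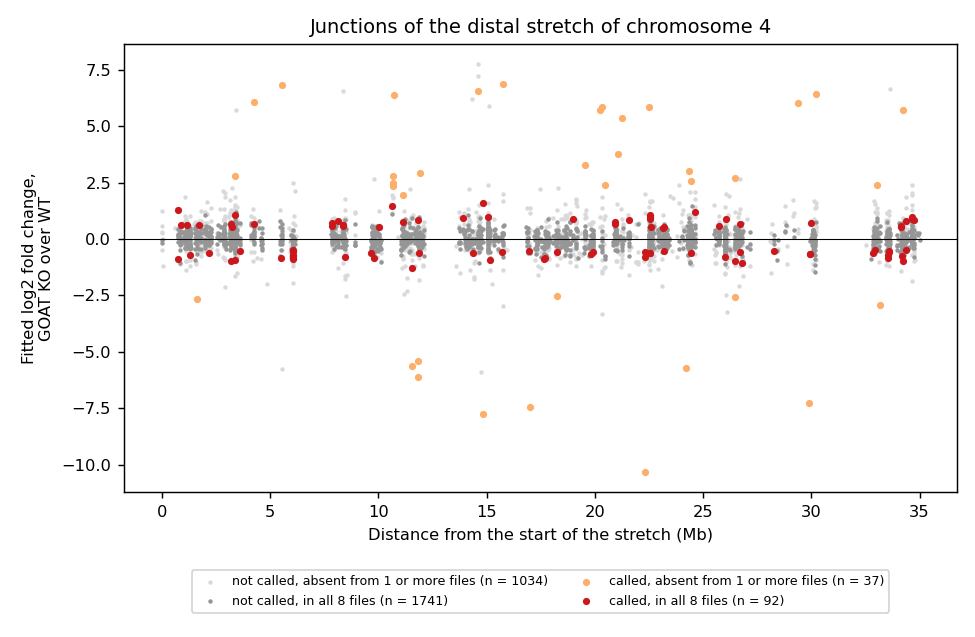
Fitted log2 fold change of each member, GOAT KO over WT (vertical axis), by its distance from the start of the stretch in Mb (horizontal axis), with called junctions in red (in all 8 files, n = 92) or orange (absent from 1 or more, n = 37). Called junctions lie above and below 0 along the whole stretch, and the 47 fitted values beyond 2.5 in either direction all belong to junctions absent from a file.

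The share called varied along the stretch between 3.06% and 6.34% in windows of 5 Mb. It was lowest from 130 to 135 Mb, with 14 of 457 junctions, and highest from 120 to 125 Mb, with 18 of 284, of which 7 belong to Col9a2. No test was made of these shares. Without WT 1118, 87 members (3.00%) were called, where 2.19% of all junctions and 2.34% of the rest of chromosome 4 were called, and 64 of the 129 remained. Without WT 1120, 183 were called (6.30%, against 4.67% of all junctions).

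**Figure D3:**
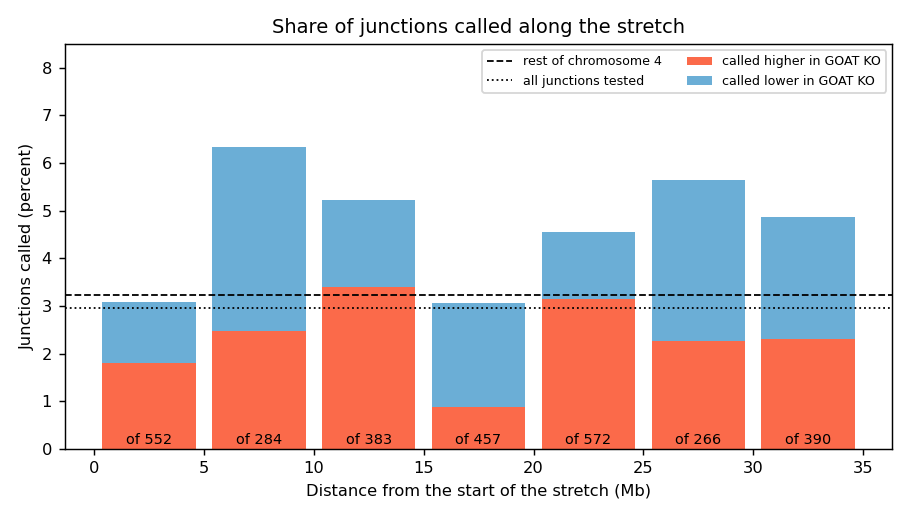
Percent of junctions called (vertical axis) in windows of 5 Mb from the start of the stretch (horizontal axis), higher (red) and lower (blue) in the libraries labelled GOAT KO, with the number of junctions at the foot of each bar. The dashed and dotted lines mark the rest of chromosome 4 (3.23%) and all junctions (2.96%), and the windows at 0 to 5 and 15 to 20 Mb lie between them and the others above both.

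The called members lie in 82 genes, 54 of which hold 1, 19 hold 2 and 9 hold 3 or more. Of the 129, 92 were listed in all 8 files, 11 have a gap, and in 64 the 4 GOAT KO values in CPM all lay on one side of the 4 WT values (49.6%, against 51.8% of the 2984 called junctions of the genome). In every one of the 8 fits that left out 1 library, 38 of the 129 were called. For 20 of the 129 only one group had any line, 12 in GOAT KO and 8 in WT, so they passed the read threshold through that group alone and their folds and p rest on the values that let them in. The 9 genes with 3 or more were Col9a2 with 7 of 35 junctions, Hspg2 with 6 of 102, Grik3 with 5 of 12, Macf1 with 4 of 72, and AU040320, Dhrs3, Eif4g3, Kif1b and Spen with 3 each. The called junctions of Grik3 were all higher and those of Col9a2 and Dhrs3 all lower, while the other 6 genes had called junctions in both directions.

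Grik3, which encodes a kainate receptor subunit that opens an ion channel when glutamate binds, lies on the plus strand at chr4:125490700-125714173. All 12 of its member junctions had a fitted fold above 0, with a median log2 fold change of 1.90. Their reads summed to 27, 54, 25 and 69 in WT 1118, 1119, 1120 and 1121, to 43 in GOAT KO 1139, and to 206, 212 and 204 in GOAT KO 1140, 1141 and 1146. GOAT KO 1139 thus lay among the WT libraries, and the other 3 stood far above.

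The junction chr4:125650592-125656287 was listed in every library, with 10, 4, 4 and 7 reads in WT and 10, 19, 22 and 22 in GOAT KO. This is a log2 fold change of 1.48 ± 0.44 (SE, edgeR's quasi-likelihood test, Benjamini-Hochberg adjusted p = 1). At chr4:125659803-125670552 there were 3 and 7 reads in WT 1118 and 1121, no line in WT 1119 or 1120, and 7, 20, 28 and 19 reads in GOAT KO. The fitted log2 fold change there was 2.80 ± 0.89 (SE), with the absent lines taken as 0 reads. At chr4:125705206-125707896, the most 3′ of the 12, no WT file held a line and the GOAT KO libraries had 2, 17, 12 and 10 reads. Across these 3 junctions GOAT KO 1139 had the fewest reads of its group each time. Of the other 9 junctions of Grik3, 2 more were called, at chr4:125656396 and chr4:125691214, and 5 of all 12 have a gap. These 2 were not called without WT 1118, and their calls were lost in 6 and 7 of the 8 fits that left out 1 library. The other 3 were called in each of the 8. Among them, chr4:125705206-125707896 passed the read threshold through GOAT KO reads alone, so its calls in these fits are a description.

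**Figure D4:**
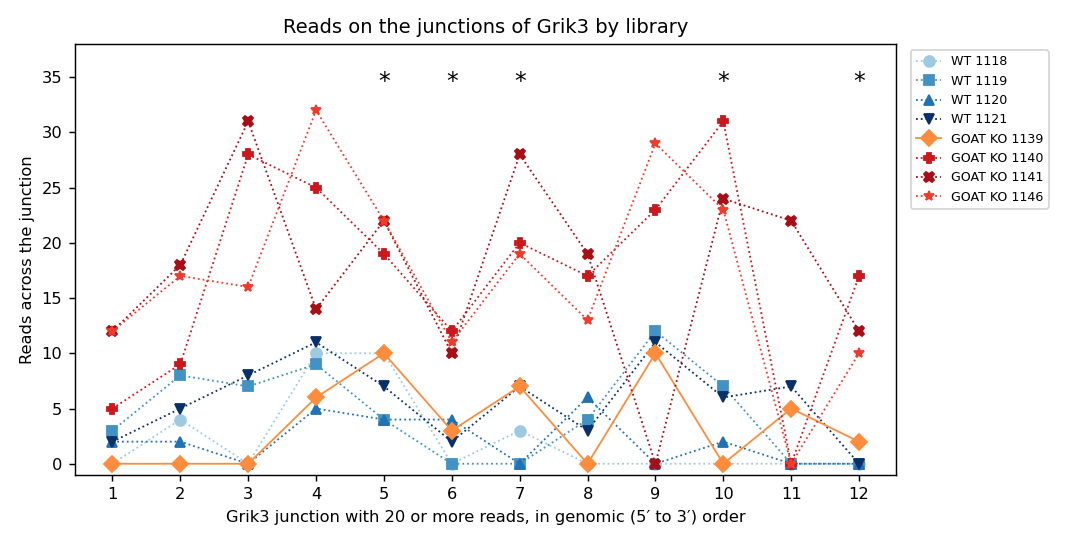
Reads across each of the 12 member junctions of Grik3 (vertical axis), in genomic order from 5′ to 3′ (horizontal axis), by library, with an absent line drawn at 0 and an asterisk over the 5 called junctions. GOAT KO 1139 (orange diamonds, solid line) follows the WT libraries, and GOAT KO 1140, 1141 and 1146 lie above them at most junctions, apart from the absent lines at the ninth and eleventh.

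The counts of whole genes showed the same order for Grik3: 1181, 1232, 1020 and 1089 in WT, 1109 in GOAT KO 1139, and 3894, 4229 and 3729 in GOAT KO 1140, 1141 and 1146. The log2 fold change was 1.52 ± 0.31 (SE, edgeR's quasi-likelihood test, Benjamini-Hochberg adjusted p = 0.55), and 1.80 without GOAT KO 1139. The test treats the 4 as one group with one spread.

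Col9a2 encodes a chain of type IX collagen, a matrix collagen that sits on the surface of other fibrils, and lies at chr4:121039385-121055322. Of its 35 members 27 had a fitted fold below 0, with a median log2 fold change of -0.24. The junction chr4:121052430-121052580 had 166, 173, 128 and 168 reads in WT and 93, 90, 98 and 69 in GOAT KO, so the groups did not overlap. The log2 fold change of this junction was -0.88 ± 0.16 (SE, edgeR's quasi-likelihood test, Benjamini-Hochberg adjusted p = 0.998), and -0.79 without WT 1118.

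The other 6 called junctions of Col9a2 had log2 fold changes from -0.86 to -0.50. In 2 of them WT 1118 was far above its group, with 402 reads against 244, 135 and 225 at chr4:121050130 and 316 against 199, 122 and 212 at chr4:121052798. Without WT 1118 their log2 fold changes were -0.44 and -0.38 and neither was called, and of the 7 called junctions of Col9a2 only 2 were, the one at chr4:121052430 and the one at chr4:121052617. The gene counts of Col9a2 were 4899, 5771, 3723 and 5124 in WT and 3651, 4149, 4339 and 3081 in GOAT KO, and the groups overlapped. Their log2 fold change was -0.34 ± 0.14 (SE, edgeR's quasi-likelihood test, Benjamini-Hochberg adjusted p = 0.983), short of the fold the call asks for.

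Hspg2 encodes perlecan, the large heparan sulfate proteoglycan of basement membranes, and with 102 members and 25616 junction reads over the 8 libraries it had 4 called junctions higher and 2 lower. Its gene counts overlapped between the groups, from 8718 to 10834 in WT and from 7821 to 10966 in GOAT KO, with a log2 fold change of 0.03 ± 0.08 (SE). At chr4:137553355-137553595 the reads were 64, 63, 51 and 61 in WT and 38, 39, 41 and 40 in GOAT KO, a log2 fold change of -0.62 ± 0.15 (SE). At chr4:137549678-137549978, upstream in the same gene, they were 13, 28, 23 and 22 in WT and 35, 25, 67 and 45 in GOAT KO, a log2 fold change of 0.96 ± 0.28 (SE). Of the junctions between them, chr4:137551927-137552094 was also called higher, and the others, such as chr4:137551205-137551791 with 59, 58, 42 and 60 against 52, 45, 66 and 73 reads, were not called. Called junctions of opposite sign thus lie within a few exons of each other in this gene.

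Macf1, a giant protein that links microtubules to actin, had 3 called junctions higher and 1 lower among 72. Neighbouring junctions at chr4:123380589 and chr4:123381356 had 39, 37, 39 and 42 reads in WT against 67, 63, 53 and 57 in GOAT KO, and 21, 27, 28 and 33 against 36, 42, 50 and 38. Both were separated between the groups, with log2 fold changes of 0.60 ± 0.17 and 0.59 ± 0.16 (SE). The gene as a whole had 9658 to 10799 counts in WT and 9446 to 11436 in GOAT KO, a log2 fold change of -0.02 ± 0.06 (SE).

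Dhrs3, a retinaldehyde reductase that turns retinal back to retinol, had 3 of its 4 members called lower. At chr4:144924032-144927134 it had 75, 79, 122 and 84 reads in WT and 66, 41, 47 and 78 in GOAT KO, so that the groups overlapped, with GOAT KO 1140 and 1141 lowest. Without WT 1120, GOAT KO 1140 or GOAT KO 1141 this junction was not called. At chr4:144893710-144918650 the reads were 22, 26 and 29 in WT 1118, 1119 and 1121, and the line was absent in WT 1120 and in every GOAT KO library, so this call rests on a junction with a gap. WT 1120 had the most Dhrs3 gene counts of all libraries, 1735, against 606 to 1202 in the others, and the gene was not called (log2 fold change -0.44 ± 0.22, SE).

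Eif4g3, a scaffold of translation initiation, had 2 called junctions higher and 1 lower of 37. Its junction at chr4:138165931 had 21, 35, 27 and 29 reads in WT and 46, 31, 42 and 41 in GOAT KO, and the one at chr4:138184768 had 95, 65, 73 and 91 against 54, 65, 57 and 53. Neither was called without WT 1118, and their calls were lost in 5 and 3 of the 8 fits that left out 1 library. Kif1b, a kinesin motor of organelle transport, and Spen, a transcriptional repressor that binds RNA, each had 2 called lower and 1 higher. The higher one of Kif1b, at chr4:149223409, is among the 20 with lines in one group, with 13, 5 and 8 reads in GOAT KO 1139, 1140 and 1141 and no line elsewhere. The Spen junction chr4:141469038-141469382 had 37, 19, 32 and 24 reads in WT and 18, 12, 14 and 15 in GOAT KO. Scaled to CPM the groups overlapped, with GOAT KO 1139 above WT 1119, and without WT 1118 the log2 fold change moved from -0.96 to -0.72. AU040320 had 1 called higher and 2 lower, and both lower ones were absent from all GOAT KO files and from at least 1 WT file. The gene counts of Eif4g3, Kif1b, Spen and AU040320 were not called, with log2 fold changes from -0.14 to 0.06.

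The members with the smallest p whose groups did not overlap, at most 1 per gene in each direction, are 5 higher and 5 lower junctions, with Hspg2 in both sets. Hyi, a hydroxypyruvate isomerase, had 23, 26, 16 and 31 reads in WT and 35, 43, 70 and 58 in GOAT KO at chr4:118362091-118362190 (log2 fold change 1.07 ± 0.24, SE). Its other 4 members, such as the next one downstream at chr4:118362261 with 26, 39, 29 and 37 against 23, 37, 48 and 45 reads, were not called, and all 5 had a fitted fold above 0. The gene counts of Hyi were 391, 518, 485 and 523 in WT and 442, 609, 713 and 626 in GOAT KO, with GOAT KO 1139 in the WT range. The gene was not called (log2 fold change 0.34 ± 0.11, SE). Ptp4a2, a protein tyrosine phosphatase, had 3, 17, 17 and 21 reads in WT and 27, 45, 61 and 43 in GOAT KO at chr4:129839679-129842669 (log2 fold change 1.59 ± 0.41, SE), with WT 1118 lowest, and the log2 fold change was 1.28 without that library. A second junction of Ptp4a2, at chr4:129846540, was called lower on absent lines, with 40, 35 and 37 reads in WT 1119, 1120 and 1121 and no line in WT 1118 or in any GOAT KO library. The gene counts of Ptp4a2 had a log2 fold change of 0.03 ± 0.06 (SE).

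On the lower side Mast2, a kinase associated with microtubules, had 27, 22, 22 and 34 reads in WT and 15, 15, 16 and 18 in GOAT KO at chr4:116314946-116315822. The junction's log2 fold change was -0.73 ± 0.23 (SE). Miip, an inhibitor of cell migration, had 36, 39, 38 and 33 against 26, 26, 26 and 17 at chr4:147862343-147862437 (log2 fold change -0.64 ± 0.21, SE). The gene counts of both were not called, with log2 fold changes of -0.07 ± 0.06 and -0.19 ± 0.06 (SE).

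Few junctions were listed by every library of one group and by no library of the other. The 3 members found only in GOAT KO files (0.103%, where 0.0714% of all junctions were of this kind) were the most 3′ of the Grik3 junctions, 1 of Asap3 and 1 of Hspg2. They reached the 20 reads of the threshold through GOAT KO reads alone, with 41, 20 and 28 reads, so the values that let them in are those that give their folds and p, and they are a description. Asap3, an activator of Arf GTPases, had 4, 4, 5 and 7 reads at chr4:136236785-136238175, and its 8 other members, with 21 to 35 reads in all, were not called. In Hspg2 the intron chr4:137519778-137531623 joins a known donor to a known acceptor that the annotation does not join, and had 6, 8, 7 and 7 reads.

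The 1 member found only in WT files (where 0.0347% of all junctions were of this kind) was in Epb41, protein 4.1 of the membrane skeleton. It had 27, 16, 14 and 28 reads in WT at chr4:132000305-132003584 and gave the smallest p of the stretch (edgeR's quasi-likelihood test, Benjamini-Hochberg adjusted p = 0.373). It too passed the threshold through 1 group alone, with 85 reads. The neighbouring junctions were present in both groups: chr4:131997542-132000199 had 8 and 5 reads in WT 1120 and 1121, no line in WT 1118 or 1119, and 8, 9, 7 and 10 reads in GOAT KO, and chr4:132003795-132006957 had 34, 18, 21 and 29 against 13, 13, 18 and 24. The gene counts, 1523 to 1688 in WT and 1243 to 1456 in GOAT KO, were not called, with a log2 fold change of -0.18 ± 0.07 (SE). Whether the line is absent because the intron was not spliced in this way or for the reason that lines were absent elsewhere was not tested.

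The second comparison asked whether the choice among alternative junctions differed, which leaves out the level of the gene. Among the members, 198 shared a donor or an acceptor with another junction, in 76 clusters of 55 genes. None passed an adjusted p of 0.05 in edgeR's test of usage (diffSpliceDGE, Benjamini-Hochberg adjusted), as none did among the 7319 junctions in clusters over the genome (0%). At an unadjusted p under 0.05 there were 6 members (3.03%, where 2.69% of all junctions in clusters passed).

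Among the smallest p for usage was the Hspg2 junction listed in GOAT KO files alone, which took 16.7%, 30.8%, 15.9% and 14.9% of the reads of its cluster there. The 30.8% is that of GOAT KO 1140, where chr4:137519778-137519881 of the same cluster had no line. That junction had 15, 14 and 13 reads in GOAT KO 1139, 1141 and 1146. Shares of a cluster count absent lines as 0. In Col9a2 the intron chr4:121043750-121052890, a new combination of known sites, had 10 reads in WT 1119 and no line in the other WT files, against 11, 17, 7 and 22 in GOAT KO. It held at most 5.63% of the reads of its cluster in any library. The junctions of Akr1a1 at chr4:116641978-116651338, with 14, 24, 3 and 3 reads in WT, 4 and 3 in GOAT KO 1141 and 1146 and no line in GOAT KO 1139 or 1140, and of AU040320 at chr4:126828889-126846477, with 9 and 11 reads in WT 1118 and 1119 only, were also among the 5 smallest p for usage. The AU040320 junction has exactly 20 reads, all from WT, and is one of those that passed the threshold through one group. The read calls of both junctions were lost without WT 1118.

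Outside the annotation were 46 members with 3610 reads, against 649414 reads on the 2858 annotated ones. Of the 46, 21 joined known sites in a new combination, 14 had a known donor and a new acceptor, 5 a known acceptor and a new donor, and 6 new sites at both ends. StringTie transcripts deposited by the authors held 24 of them in 1 library or more. Hspg2 alone had 10 and Col9a2 5, and both genes encode proteins with many repeated domains or repeats. The most-read of the 46 was in Ece1, the enzyme that makes endothelin, at chr4:137949159-137949446. It had 87, 98, 121 and 129 reads in WT and 126, 99, 100 and 112 in GOAT KO, and the groups overlapped (log2 fold change 0.00 ± 0.16, SE). One in Ubr4, a ubiquitin ligase, had 7, 22, 19 and 16 against 23, 18, 21 and 14 reads at chr4:139482683-139484390. A junction in no gene, chr4:119276345-119278164, had 71, 29 and 59 reads in 3 WT files and 39, 59 and 54 in 3 GOAT KO files and was absent from WT 1121 and GOAT KO 1140. Also among the 5 most read was chr4:121051259-121052752 in Col9a2, with 26, 26, 25 and 24 reads in WT, 20, 15 and 13 in GOAT KO 1139, 1140 and 1141 and no line in GOAT KO 1146, every listed GOAT KO value below every WT value, and it was not called. The fifth, chr4:137541777-137550340 in Hspg2, had 25, 18 and 10 reads in WT 1119, 1120 and 1121, no line in WT 1118, and 22, 16, 14 and 33 in GOAT KO, and was not called either.

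Lists of genes of the stretch, grouped by known function, were described by their junctions, 78 genes in all, of which 61 have members, with 761 junctions. The share called ran from 2.47% for RNA binding and splicing (2 of 81 junctions) to 8.33% for signalling (10 of 120), against 4.44% of the stretch and 2.96% of all junctions.

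In the signalling list 5 called junctions were higher, all of Grik3, and 5 lower. Wnt4, a secreted factor of ovary development, had 2 of its 3 members called lower. At chr4:137295803 it had 35, 29, 52 and 28 reads in WT and 21, 17, 22 and 25 in GOAT KO, every GOAT KO value below every WT value, and its other called junction was not called without WT 1118. Mtor, the kinase that ties growth to nutrients, had 2 of 49 called lower, with 36, 22, 23 and 26 against 15, 17, 9 and 19 reads at chr4:148537960, and neither was called without WT 1118. The fifth was the junction of Cdc42 described above.

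In the matrix list 15 of 241 junctions (6.22%) were called, 13 of them in Col9a2 and Hspg2. Col16a1, a collagen associated with fibrils, had 1 of 69 called, and P3h1, a prolyl hydroxylase of collagen, 1 of 14, both higher. In the energy and metabolism list 5 of 76 junctions (6.58%) were called, all higher: Pgd, an enzyme of the pentose phosphate pathway, and Fuca1, a lysosomal fucosidase, with 2 each and Dhdds, an enzyme of dolichol synthesis, with 1. The Pgd junction at chr4:149150976 had 26, 37, 45 and 42 reads in WT and 55, 50, 61 and 52 in GOAT KO. Without WT 1118 none of the 4 junctions of Pgd and Fuca1 was called, and neither were those of Col16a1 and P3h1.

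Oocyte and germ cell genes had 18 members, 15 of them in Padi6, a protein of the cytoplasmic lattices of oocytes. Padi6 junctions held 2120 to 2290 reads in each WT library and 2168, 2569, 3216 and 2416 in GOAT KO 1139, 1140, 1141 and 1146. Only 1 junction of Padi6 was called, at chr4:140734376, with 50, 90, 105 and 119 reads in WT and 113, 137, 174 and 124 in GOAT KO, and without WT 1118 it was not called (log2 fold change 0.42). In the translation list 4 of 66 (6.06%) were called, 3 of them in Eif4g3. The fourth was the single member of Rpl11, a ribosomal protein whose near-identical copies make its reads uncertain, with 1 read each in WT 1118, 1120 and 1121, no line in WT 1119, and 1, 10, 20 and 18 reads in GOAT KO.

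The cell cycle list had 3 of 85 junctions called (3.53%), all lower, in Clspn, a checkpoint protein, and Kif2c, a kinesin of the centromere. The Clspn junction at chr4:126561920 had 8, 4 and 11 reads in WT 1118, 1119 and 1120 and no other line. It thus passed the threshold through WT alone. The Clspn junction at chr4:126576497 and that of Kif2c were not called without WT 1118. The chromatin list had 2 of 74 (2.70%), with Kdm1a, a histone demethylase, higher at chr4:136557754 (14, 27, 26 and 28 against 36, 39, 61 and 35 reads) and Kdm4a, another, lower. The 2 called in the RNA binding list, in Srrm1 and Ybx1, had no line in any WT file and none in at least 1 GOAT KO file. Sfpq, the most-read gene of that list, had 13 members and none called.

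The third comparison set the junctions beside the counts of whole genes. The stretch was proposed with differences of these gene counts known, so the shares of genes below are a description, not an independent result. Of 464 genes of the stretch tested, 21 were called from their counts (4.53%, where 1.67% of all 16601 genes tested were called), 9 with higher counts (0.958% of all genes) and 12 with lower counts (0.717% of all genes) in GOAT KO. edgeR's quasi-likelihood test left 0 of the 464 under a Benjamini-Hochberg adjusted p of 0.05, where 0.0241% of all genes passed. At p under 0.05 before adjustment there were 62 genes of the stretch (13.4%, where 4.62% of all genes passed), and DESeq2 left 2 under an adjusted p of 0.05, where 0.0783% of all genes (13) passed. Only 5 of the 21 have a member junction, C87977, Dcdc2b, Fndc5, Gm13103 and Grik3, and Grik3 alone has called ones. Conversely, of the 82 genes with a called member only Grik3 was called from its counts.

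The called genes that the study names or that had the smallest p, other than Grik3, had few junction reads. Spocd1, a factor of DNA methylation in germ cells, had 44, 31, 38 and 27 counts in WT and 51, 101, 114 and 127 in GOAT KO, and its 9 junctions held 56 reads in all. Masp2, a protease of the complement system, had 17, 13, 9 and 10 counts in WT and 12, 66, 115 and 109 in GOAT KO, with 12 junctions and 41 reads. Hspb7, a small heat shock protein of muscle, had 39, 35, 38 and 26 against 37, 60, 69 and 119 counts and 3 junctions with 16 reads. Cited4, a transcriptional co-regulator, had 147, 114, 163 and 109 against 104, 64, 69 and 46 counts and no junction line.

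GOAT KO 1139 lay within the range of the 4 WT libraries for 13 of the 21 called genes (61.9%), GOAT KO 1140 for 0, GOAT KO 1141 for 1 and GOAT KO 1146 for 4. Over all 278 called genes the same held for 60 (21.6%), 60, 48 and 63. Dcdc2b, for example, had 86, 112, 111 and 120 counts in WT, 92 in GOAT KO 1139 and 50, 55 and 52 in the other 3. Gm13103 had 289, 237, 294 and 258 in WT, 290 in GOAT KO 1139 and 127, 128 and 113 in the others, with 3 members of which the most-read had 20 reads in GOAT KO 1139, 10 in GOAT KO 1141 and no line in the other 2. These genes were called on the same libraries, so the counts of genes are a description. Without GOAT KO 1139, 37 of 472 genes of the stretch were called (7.84%, where 1.96% of all 16827 genes tested were called). This fit is given here because that library lay in the WT range of these same genes, so its count is a description too. The range over the other fits without 1 library is given below.

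**Figure D5:**
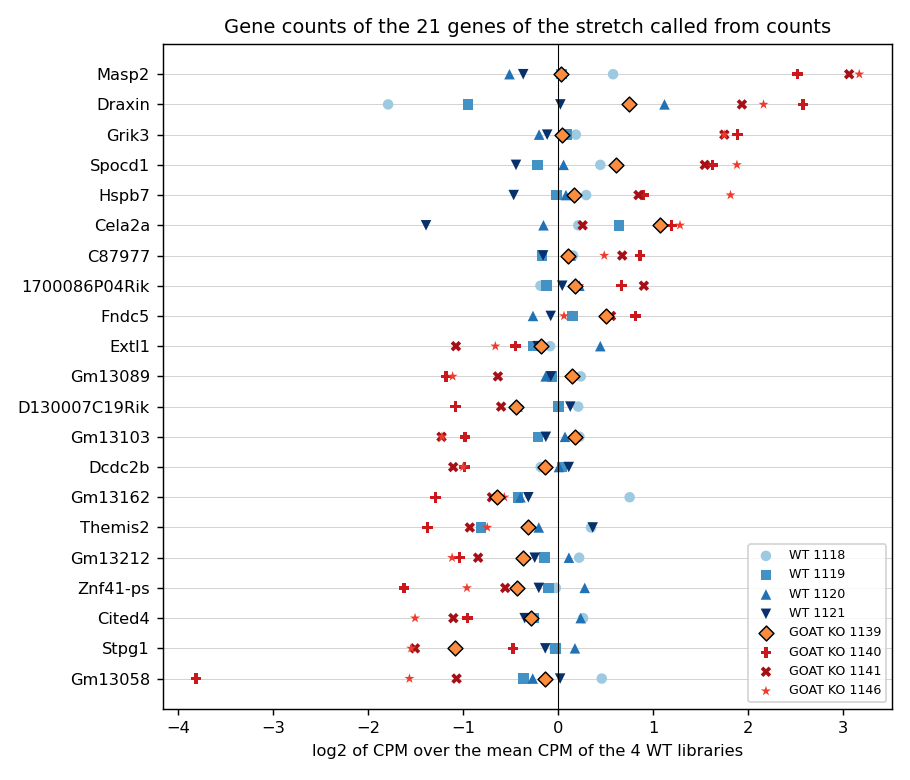
Counts of the 21 called genes of the stretch in each library, as log2 of the CPM over the mean CPM of the 4 WT libraries (horizontal axis), 1 gene per line. GOAT KO 1139 (orange diamonds) lies within the WT range for 13 of the 21 genes, among them Masp2, Grik3, Gm13103 and Dcdc2b.

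The called junctions of the stretch did not single out GOAT KO 1139. It lay within the WT range for 27 of the 129 (20.9%), against 30 for GOAT KO 1140, 18 for 1141 and 25 for 1146, and for 20.9% of the 2984 called junctions of the genome.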

How the data were processed

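The authors aligned cleaned single reads to mm10 with TopHat 2.0.14 and assembled transcripts with StringTie 1.0.4, guided by GENCODE. They deposited counts of reads per junction for each library, and counts per gene symbol, both whole numbers without normalization. The counting tool and its use of strand are not given in the sources used here, so overlapping genes and near-identical copies may share reads.

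Junctions were merged by intron and strand, assigned to GENCODE genes of GRCm38 and tested together with edgeR 4.0.16 in R 4.3.3 (TMM scaling, quasi-likelihood test, 20 or more reads summed), with Benjamini-Hochberg adjustment over 100866 junctions. CPM of junctions are scaled to the total of junction reads. Usage was tested with diffSpliceDGE. Gene counts (16147216 to 19481798 per library) were tested likewise after filterByExpr. Each SE is the log2 fold change over the square root of F. The procedure was tested on simulated data. DESeq2 1.42.0 was an alternative. The study left out 1 library per group, unnamed in its text, so all 8 were used.

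The members, lists, thresholds and named items were chosen with earlier results of these data known. Named junctions are the 5 higher and 5 lower with the smallest p and no overlap (1 per gene), the 5 smallest p for usage (1 of them is not reported here), the 5 most read, the 5 most-read unannotated, those of genes with 3 or more called members, and called or most-read genes of the lists. Other items shown, such as neighbouring junctions, Masp2, C87977 and Fndc5, were chosen after their values were seen. Each library is 1 mouse, so p-values measure the spread between animals. Gene names of 10 genes were matched through RefSeq synonyms.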

Additional observations from a re-analysis of the deposited data

Results flagged for a closer look

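Values were looked at again where the highest or lowest of the 4 libraries of a group stood apart by Dixon's criterion. Of the 48 groups with every line present, 6 did, and chance alone gives about 1 in 20. For the junctions, GOAT KO 1146 was high at the Asap3 junction chr4:136236785-136238175 with 2.51 CPM, and WT 1119 was the only WT library with a line for the Col9a2 junction chr4:121043750-121052890, at 3.42 CPM, where the absent lines, entered as 0, fix the criterion by construction, so it is not among the 6. At the Ddost junction chr4:138310278-138310602 WT 1118 was high with 211 CPM, and GOAT KO 1141 was low with 86.2 CPM. For the gene counts, GOAT KO 1139 stood apart from the other 3 GOAT KO libraries in 3 genes, at 66.3 CPM for Grik3, 5.5 CPM for Dcdc2b and 17.3 CPM for Gm13103, each time within the range of the WT libraries.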

How the results depend on the processing

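The 129 called members became 197 with no threshold on reads, where 5291 junctions of the stretch were tested, and 87 to 183 when 1 library was left out, lowest without WT 1118 and highest without WT 1120. Every other alternative gave 88 to 176, including 167 without WT 1120 and GOAT KO 1139. Members at an adjusted p under 0.05 numbered 5 with DESeq2, 1 with no threshold, 1 without junctions with a gap, 0 to 1 with 1 library left out (1 without WT 1118) and 0 otherwise. Usage passed for 5 members when clusters were whole genes and for 0 to 1 with 1 library left out (1 without GOAT KO 1140). Genes called from counts numbered 33 without WT 1120 and GOAT KO 1139, 40 without filterByExpr (769 genes tested) and 15 to 37 with 1 library left out (37 without GOAT KO 1139). The cause of these changes was not tested. Shares of all junctions called moved as well, with 2.19% without WT 1118 and 4.67% without WT 1120. For most alternatives that share is not given here, so these counts, the 5 by usage included, are no result about the stretch. The alternatives on absent lines were chosen after the data were seen. No fold change of a named junction or gene changed sign past its threshold. Over the alternatives of the 24 junctions named for their p, usage or reads the call was lost 11 times, in the Akr1a1 and AU040320 junctions of the usage comparison, and gained 4 times. Of all 129 called members, those named by gene or list included, 91 lost the call in 1 or more of the 8 fits without 1 library. Over those of the named genes it was lost 49 times, in 11 of the 21 called genes (Gm13089 in 7 fits), and gained once, for Dhrs3. No paired analysis was possible because the groups share no replicate numbers. Depth limits junctions with few reads, and an absent line cannot be read as 0.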

Other observations

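In the part of chromosome 4 just before the stretch, from 100000000 on, 24 of 534 junctions of chromosome 4 (4.49%) were called, a share close to the 4.44% of the stretch itself. The share of the rest of chromosome 4 was 3.00% once these were counted with the stretch. No test was made of these shares.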
